A study of Homo sapiens with 6 samples.

Results

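Transcripts of 9 genes of fatty acid oxidation and PPAR signalling were followed in the established human bladder cancer cell line T24 with and without oxidized low-density lipoprotein (ox-LDL). The 9 are the carnitine shuttle genes CPT1A, SLC25A20 and CPT2, the mitochondrial beta-oxidation genes ACADVL, ACADM, HADHA and HADHB, and 2 genes widely used as readouts of PPAR activity, PDK4 and ANGPTL4. They were taken by gene symbol. Each had 1 probe set, and they are 9 of the 17687 genes the annotation names, among 21448 probe sets tested. None of them is a peroxisomal enzyme. Peroxisomal genes are given separately.

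The OXLDL group held 3 samples of T24 cells given 20 μg/mL ox-LDL for 24 h, and the CON group 3 samples given vehicle for 24 h. All 6 had grown in medium with 10% serum and then gone 12 h without serum before treatment. Nothing in the labels says that each sample was a culture of its own, so the p-values rest on a spread that may be technical. One description field names a control siRNA and a G9a siRNA instead, against the titles, source names and treatment fields, which were followed. EHMT2, the gene of G9a, averaged 8.22 ± 0.14 in OXLDL and 7.85 ± 0.19 in CON (log2 value, SD, n = 3 each), and its difference did not pass (limma adjusted p = 0.125). Its OXLDL arrays all lay above its CON arrays, by a gap of 0.054, as was the case for 19.1% of all probe sets.

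Long-chain fatty acids enter mitochondria as carnitine esters. CPT1A, on the outer membrane, makes the acylcarnitine and is the step at which malonyl-CoA restrains the pathway. SLC25A20 carries acylcarnitine across the inner membrane in exchange for free carnitine, and CPT2 turns it back into acyl-CoA. ACADVL and ACADM start each round of beta-oxidation on very long and medium chains, and HADHA and HADHB form the trifunctional protein that completes the round on long chains. PPARs are nuclear receptors that bind fatty acids, pair with RXR, and switch on many of these genes. PDK4 is a kinase that shuts off pyruvate dehydrogenase, and ANGPTL4 is a secreted inhibitor of lipoprotein lipase.

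The bases before the annotated starts are shown for the pair of genes that rose, CPT1A and SLC25A20, beside the PPAR readout pair PDK4 and ANGPTL4, which did not pass. The stretch between HADHA and HADHB is added because the 2 genes lie head to head with 306 bases between their starts. All 9 genes were found in RefSeq's promoter table (GRCh38.p14), ACADVL with 2 starts. Each window is 250 bases long, ends at the base before the start and reads 5′ to 3′ on the gene's strand, except the 194-base stretch shared by the HADHA and HADHB windows, which reads on the HADHB strand. Capitals mark exact matches, on either strand, of the motifs GGGCGG (GC box), CCAAT and TATAAA.
CPT1A (chr11:68844278-68844527, minus strand): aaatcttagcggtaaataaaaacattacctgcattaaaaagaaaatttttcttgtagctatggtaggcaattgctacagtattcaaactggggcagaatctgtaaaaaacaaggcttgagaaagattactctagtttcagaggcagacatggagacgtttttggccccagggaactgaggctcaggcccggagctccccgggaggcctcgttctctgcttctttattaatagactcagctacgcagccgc
SLC25A20 (chr3:48898883-48899132, minus strand): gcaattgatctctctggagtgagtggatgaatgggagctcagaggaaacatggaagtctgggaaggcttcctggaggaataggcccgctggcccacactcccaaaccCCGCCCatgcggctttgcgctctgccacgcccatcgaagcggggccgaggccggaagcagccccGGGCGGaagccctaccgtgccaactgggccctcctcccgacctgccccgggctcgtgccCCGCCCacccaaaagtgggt
PDK4 (chr7:95596517-95596766, minus strand): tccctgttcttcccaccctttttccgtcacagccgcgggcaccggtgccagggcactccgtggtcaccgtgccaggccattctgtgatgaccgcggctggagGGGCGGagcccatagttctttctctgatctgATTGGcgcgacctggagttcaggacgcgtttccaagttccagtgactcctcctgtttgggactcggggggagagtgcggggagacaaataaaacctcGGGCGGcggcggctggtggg
ANGPTL4 (chr19:8363905-8364154, plus strand): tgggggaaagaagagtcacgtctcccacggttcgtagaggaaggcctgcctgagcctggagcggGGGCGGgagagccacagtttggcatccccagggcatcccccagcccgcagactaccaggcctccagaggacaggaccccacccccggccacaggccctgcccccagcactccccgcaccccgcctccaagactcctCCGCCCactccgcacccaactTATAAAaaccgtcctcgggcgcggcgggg
HADHA and HADHB, shared stretch (chr2:26244689-26244882, plus strand): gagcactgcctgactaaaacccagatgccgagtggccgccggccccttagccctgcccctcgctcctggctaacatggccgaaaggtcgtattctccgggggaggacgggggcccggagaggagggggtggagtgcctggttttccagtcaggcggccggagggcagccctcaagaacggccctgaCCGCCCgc

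The nuclear receptor half-site AGGTCA had no match on either strand in the 10 windows of the 9 genes, against 12.1% of the 35116 windows in the table. Its direct repeat AGGTCANAGGTCA, which contains it, the arrangement that PPAR and RXR bind as a pair, matched in 0.0171% of all windows and in none of the 10. GGGCGG was present before 8 of the 9 genes, with CPT1A the exception, and in 42.6% of all windows. The match before HADHA lies in the shared stretch and is also counted before HADHB. SLC25A20 held 3 copies, 143, 79 and 20 bases before its start, and ACADM held 4. CCAAT was found before PDK4 and in 32.0% of all windows, and TATAAA before ANGPTL4 and 1 of the ACADVL starts and in 10.7% of all windows. These matches describe the letters of short windows, and nothing about binding was measured.

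Expression was measured as log2 values on 1 array per sample, where the number of arrays limits the precision. The median of an array lay between 7.11 and 7.18. CON replicate 3 stood apart, with correlations of 0.979 to 0.988 with the other arrays across probe sets, against 0.992 to 0.997 among the other 5. Its background probes with the most G and C were brighter too, with a mean of 7.82 against 7.27 to 7.37 on the others, so results are also given without it. Of 5 keratin genes of epithelial cells, KRT7, KRT8 and KRT18 were bright, with KRT8 at 12.20 ± 0.01 in OXLDL and 12.10 ± 0.04 in CON (log2 value, SD, n = 3 each). KRT5 lay near the array medians, and KRT19 averaged 7.78 in OXLDL and 7.67 in CON. The urothelial genes UPK1B and UPK3A and the epithelial cadherin gene CDH1 were no brighter in either group than 5.21, the value under which 95% of negative control values fall. Above it lay UPK1A (5.79 in OXLDL, 5.98 in CON), UPK2 (6.41 in OXLDL, 6.61 in CON), GATA3 (6.95 in OXLDL, 7.14 in CON) and EPCAM (5.61 in OXLDL, 5.48 in CON). The macrophage genes CD14 (7.19 in OXLDL, 7.54 in CON), CD68 (7.94 in OXLDL, 8.07 in CON) and CD163 (6.05 in OXLDL, 6.15 in CON) also lay above it. A level above 5.21 thus does not by itself mark a cell type. Of 41 measured markers of urothelial and other cell types, 0 passed in limma and 0 with an ordinary t statistic. An unadjusted p under 0.05 was found for 6, against 26.1% of all probe sets. Leaving out CON replicate 3, 2 passed in limma. Under other variance models, 1 marker rose with an intensity trend and robust fit, and 1 rose and 2 fell with array weights. Those fits passed 2649 and 3962 of all 21448 probe sets.

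CPT1A and SLC25A20, the enzyme and the carrier that bring long-chain fatty acids into mitochondria, rose with ox-LDL, and the other 7 genes did not pass. CPT1A was 1.83-fold higher in OXLDL (95% confidence interval 1.62 to 2.08, n = 3 each) and SLC25A20 1.47-fold higher (1.25 to 1.73, n = 3 each). Over all probe sets 3.48% rose and 3.29% fell by the same test, limma with Benjamini-Hochberg adjustment at 0.05, so that 6.77% passed, against 2 of these 9. That share includes dim probe sets, while 7 of the 9 lay above the median level. Among the 10724 probe sets above it, tested alone, 2608 passed, against 2 of the 7. RNA came from whole cultures, so more cells with a transcript and more of it per cell cannot be told apart. The median log2 difference of the 9 was 0.08, against -0.03 over all probe sets. It was 0.06 without CON replicate 3.

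CPT1A had log2 values of 8.63, 8.71 and 8.61 on the OXLDL arrays, against 7.75, 7.86 and 7.72 on the CON arrays. Every OXLDL array lay above every CON array, with a gap of 0.75 between the nearest pair, while the arrays of a group lay within a range far narrower than that gap. The groups averaged 8.65 ± 0.05 in OXLDL and 7.78 ± 0.08 in CON (SD, n = 3 each), a log2 difference of 0.88 (SE 0.08, limma adjusted p = 0.00226). Its p ranked 86 among the 21448 probe sets. The call held without any 1 array (adjusted p = 0.00294 to 0.0232), with differences of 0.84 to 0.92, and also with the ordinary t statistic (adjusted p = 0.0106). By the selection the submitters state, which needs a fold of 1.5 or more and an unadjusted p of no more than 0.001, 2.31% of all probe sets were taken, and CPT1A alone of the 9.

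SLC25A20, also called the carnitine-acylcarnitine translocase, had log2 values of 7.63, 7.61 and 7.46 on the OXLDL arrays, against 7.12, 6.85 and 7.06 on the CON arrays. The groups did not overlap, and the gap between the nearest pair was 0.34. The means were 7.57 ± 0.09 in OXLDL and 7.01 ± 0.14 in CON (SD, n = 3 each), a log2 difference of 0.56 (SE 0.10, limma adjusted p = 0.0229). It missed the study's selection on fold change, at 1.47, with an unadjusted p of 0.000809. Leaving out any 1 OXLDL array or CON replicate 2 ended the call (limma adjusted p = 0.114, 0.116 and 0.0702 without OXLDL replicates 1, 2 and 3, and 0.0586 without CON replicate 2), with differences of 0.48 to 0.61. Without CON replicate 3 it passed (adjusted p = 0.0233).

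CPT2, the last step of the shuttle, had log2 values of 8.03, 7.93 and 7.95 on the OXLDL arrays, against 7.87, 7.96 and 7.54 on the CON arrays. Here the groups overlapped, and CON replicate 3 was the low array. The log2 difference was 0.17 (95% confidence interval -0.11 to 0.45, limma adjusted p = 0.376), and 0.05 without CON replicate 3. Its upper bound of 0.45 was the highest among the 7 genes that did not pass, while the interval of CPT1A began at 0.69. Whether one gene's difference exceeded another's was not tested.

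**Figure D1:**
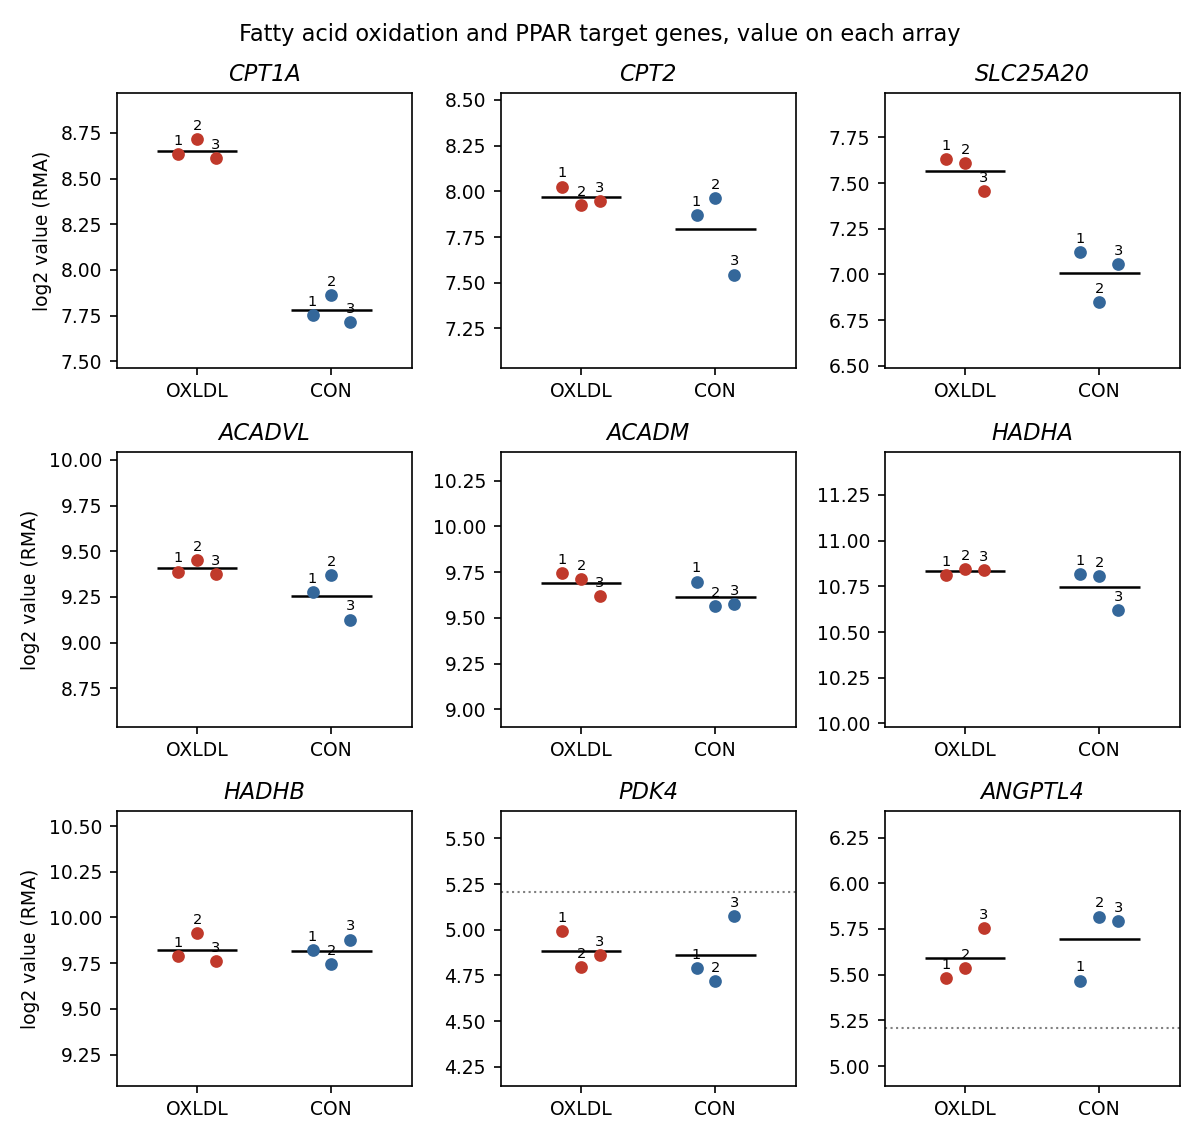
Log2 value on each array for the 9 genes, 1 panel per gene, with the OXLDL arrays on the left and the CON arrays on the right of each panel. Points are arrays labelled with their replicate number, bars are group means, and every panel spans the same log2 range on an axis of its own, so heights are not comparable between panels. Dotted lines mark 5.21, the 95th percentile of the negative controls, where it falls in the panel. CPT1A and SLC25A20 separate by group with gaps of 0.75 and 0.34, and PDK4 lies under the dotted line on all 6 arrays.

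Among the 4 beta-oxidation genes none passed the test. ACADVL, the very-long-chain acyl-CoA dehydrogenase, had log2 values of 9.39, 9.45 and 9.37 on the OXLDL arrays, against 9.28, 9.37 and 9.13 on the CON arrays. Its OXLDL arrays all lay above its CON arrays, but by a gap of only 0.0048. Of all probe sets 19.1% separated in this direction and 17.7% in the other, against 3 and 0 of the 9. The log2 difference was 0.15 (95% confidence interval -0.05 to 0.35, limma adjusted p = 0.308), and 0.08 without CON replicate 3. ACADM, the medium-chain dehydrogenase, had 9.74, 9.71 and 9.62 on the OXLDL arrays, against 9.70, 9.56 and 9.57 on the CON arrays. These values overlapped between the groups, with a log2 difference of 0.08 (95% confidence interval -0.10 to 0.26, limma adjusted p = 0.526).

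HADHA, the alpha subunit of the trifunctional protein, had log2 values of 10.81, 10.85 and 10.84 on the OXLDL arrays, against 10.82, 10.81 and 10.62 on the CON arrays. HADHB, the beta subunit, had 9.79, 9.92 and 9.76 on the OXLDL arrays, against 9.82, 9.74 and 9.88 on the CON arrays. Both overlapped between the groups, and CON replicate 3 was the lowest array for HADHA but the highest CON array for HADHB. The log2 difference of HADHA was 0.08 (95% confidence interval -0.11 to 0.28, limma adjusted p = 0.522) and that of HADHB 0.01 (-0.18 to 0.20, adjusted p = 0.956). In folds, the interval of HADHB ran from 0.883 to 1.15. Its sign turned under a second quantile normalization (-0.032) and cyclic loess (-0.055), so no direction can be given. HADHA moved to 0.02 without CON replicate 3.

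Neither PPAR readout gene passed the test. PDK4 had log2 values of 4.99, 4.79 and 4.86 on the OXLDL arrays, against 4.79, 4.72 and 5.08 on the CON arrays. All 6 lay below the 5.21 of the negative controls, and values near background are compressed by the array summary, so a change at that level could have been missed. The log2 difference was 0.02 (95% confidence interval -0.25 to 0.29, limma adjusted p = 0.917), and 0.13 without CON replicate 3. ANGPTL4 had 5.48, 5.53 and 5.75 on the OXLDL arrays, against 5.47, 5.82 and 5.79 on the CON arrays. These lay above the negative controls' 5.21 by under 1 log2 unit and overlapped between the groups. The log2 difference was -0.10 (95% confidence interval -0.40 to 0.19, limma adjusted p = 0.614), so that the interval of the fold ran from 0.759 to 1.14; the sign turned under cyclic loess (0.010).

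**Figure D2:**
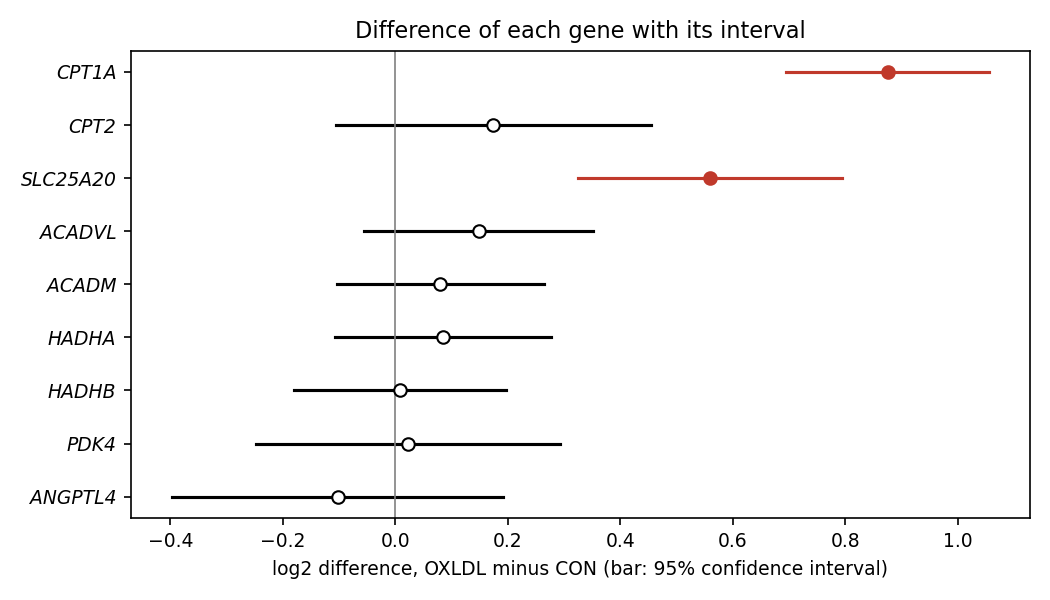
Log2 difference of OXLDL minus CON for the 9 genes (points) with the 95% confidence interval of the limma fit (bars), over 3 arrays per group. Filled red points passed the test. The bars of CPT1A (0.69 to 1.06) and SLC25A20 (0.32 to 0.79) lie above 0, and the other 7 cross 0.

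The remaining genes of the pathway were described by role, each list beside the background of 3.48% of all probe sets higher and 3.29% lower. Of 15 measured genes of the carnitine shuttle, fatty acid activation and uptake, 1 rose and 14 did not pass. The one that rose, SLC22A5, is the plasma membrane importer of carnitine. It had log2 values of 7.97, 8.09 and 7.96 on the OXLDL arrays, against 7.34, 7.66 and 7.14 on the CON arrays. Its difference was 0.63 (SE 0.14, limma adjusted p = 0.0417), and the call was lost without any 1 OXLDL array (adjusted p = 0.137 to 0.164) or CON replicate 1 (0.0933), with 0.51 without CON replicate 3. For CPT1B, the muscle form of CPT1, the difference was -0.08 (SE 0.09, adjusted p = 0.594). ACBD3, an acyl-CoA binding domain protein, had one of -0.16 (SE 0.07, adjusted p = 0.199), and CD36, a fatty acid and ox-LDL receptor, one of -0.07 (SE 0.12, adjusted p = 0.729) at a level at or below the negative controls. The median of the list was -0.01, against -0.03 over all probe sets.

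ETFA, ETFDH, ACAA2, HADH and ACAT1 rose among the other genes of mitochondrial beta-oxidation. Of 21 other mitochondrial genes measured, 5 rose, 0 fell and 16 did not pass (limma), with 11 at an unadjusted p under 0.05 against 26.1% of all probe sets. Differences were above 0 for 17 of the 21, against 44.9% of all probe sets, and the median was 0.31. For 14 of the 21 every OXLDL array lay above every CON array, which 19.1% of all probe sets also did. These shares include dim probe sets. Among probe sets above the median level, tested alone, 8 of 16 genes of the list rose, against 1571 of 10724 probe sets. ETFA, a subunit of the flavoprotein that takes electrons from the acyl-CoA dehydrogenases, had log2 values of 9.91, 9.89 and 9.88 on the OXLDL arrays, against 9.51, 9.46 and 9.32 on the CON arrays. Its difference was 0.46 (SE 0.08, limma adjusted p = 0.0196). ETFDH, which passes those electrons to ubiquinone, rose by 0.39 (SE 0.08, adjusted p = 0.0338). ETFB, the other subunit of the flavoprotein, did not pass (0.35, SE 0.09, adjusted p = 0.0631).

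The other 3 that rose were ACAA2, HADH and ACAT1. ACAA2, the mitochondrial 3-ketoacyl-CoA thiolase, had log2 values of 9.96, 9.93 and 9.92 on the OXLDL arrays, against 9.57, 9.38 and 9.25 on the CON arrays. The difference was 0.54 (SE 0.09, limma adjusted p = 0.0226). HADH, the short-chain 3-hydroxyacyl-CoA dehydrogenase, rose by 0.50 (SE 0.11, adjusted p = 0.0464), and ACAT1, the acetoacetyl-CoA thiolase of ketone and isoleucine metabolism, by 0.47 (SE 0.09, adjusted p = 0.0324). On this list CON replicate 3 was the lowest of the 6 arrays for 16 of 21 genes, against 28.3% of all probe sets, and its part in the list's shift was measured by leaving it out. Without it 1450 of all probe sets rose and 1220 fell, against 746 and 705 with all arrays. On the list the median was then 0.21, 7 genes rose and 1 fell. The 5 named genes were among the 7, and ACADSB (0.70, adjusted p = 0.0331, against 0.0680 with all arrays) and HSD17B10 (0.28, adjusted p = 0.0378, against 0.0531) joined them, while ACAD11 fell by 0.48 (adjusted p = 0.0290, against 0.353).

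The mitochondrial list held 3 risers without CON replicate 1 and 0 in limma without CON replicate 2 or without any 1 OXLDL array. In those fits CPT1A still passed. Over all 21448 probe sets, 718 passed without CON replicate 2 and 305 to 335 without 1 OXLDL array, against 1451 with all. With an ordinary t statistic 2 of the 21 rose.

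**Figure D3:**
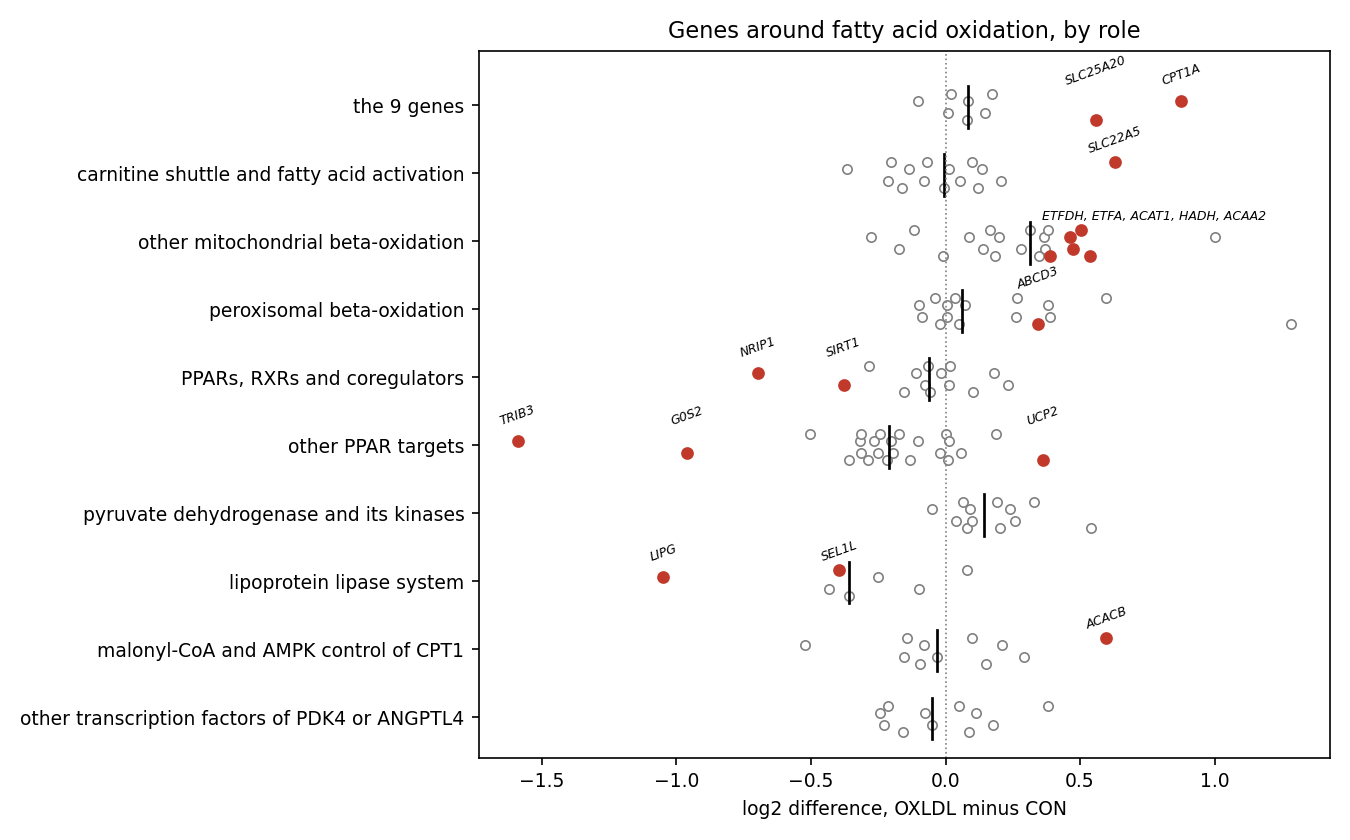
Log2 difference of OXLDL minus CON for each measured gene of the 9 and of the other lists (1 row per list, points are genes, offset vertically for legibility). Red named points passed the test, and the black bar is the list's median, with 0.31 for the other mitochondrial beta-oxidation genes and -0.36 for the lipoprotein lipase system as the ends of the range.

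Peroxisomes shorten very long and branched chains before mitochondria take over. Of 16 measured peroxisomal beta-oxidation genes 1 rose and 15 did not pass. An unadjusted p under 0.05 was found for 7, against 26.1% of all probe sets. ABCD3, a transporter of the peroxisomal membrane, had log2 values of 10.21, 10.17 and 10.15 on the OXLDL arrays, against 9.90, 9.85 and 9.75 on the CON arrays. The difference was 0.34 (SE 0.07, limma adjusted p = 0.0406), and the call was lost without any 1 array other than CON replicate 3 (adjusted p = 0.0662 to 0.167). CROT, which makes medium-chain acylcarnitines for export to mitochondria, had 7.65, 7.58 and 7.71 on the OXLDL arrays, against 6.87, 6.72 and 5.50 on the CON arrays. It did not pass (log2 difference 1.28, SE 0.34, adjusted p = 0.0708), but without CON replicate 3 it rose by 0.85 (adjusted p = 0.00375). The list's median was 0.06, or 0.13 without CON replicate 3.

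**Figure D4:**
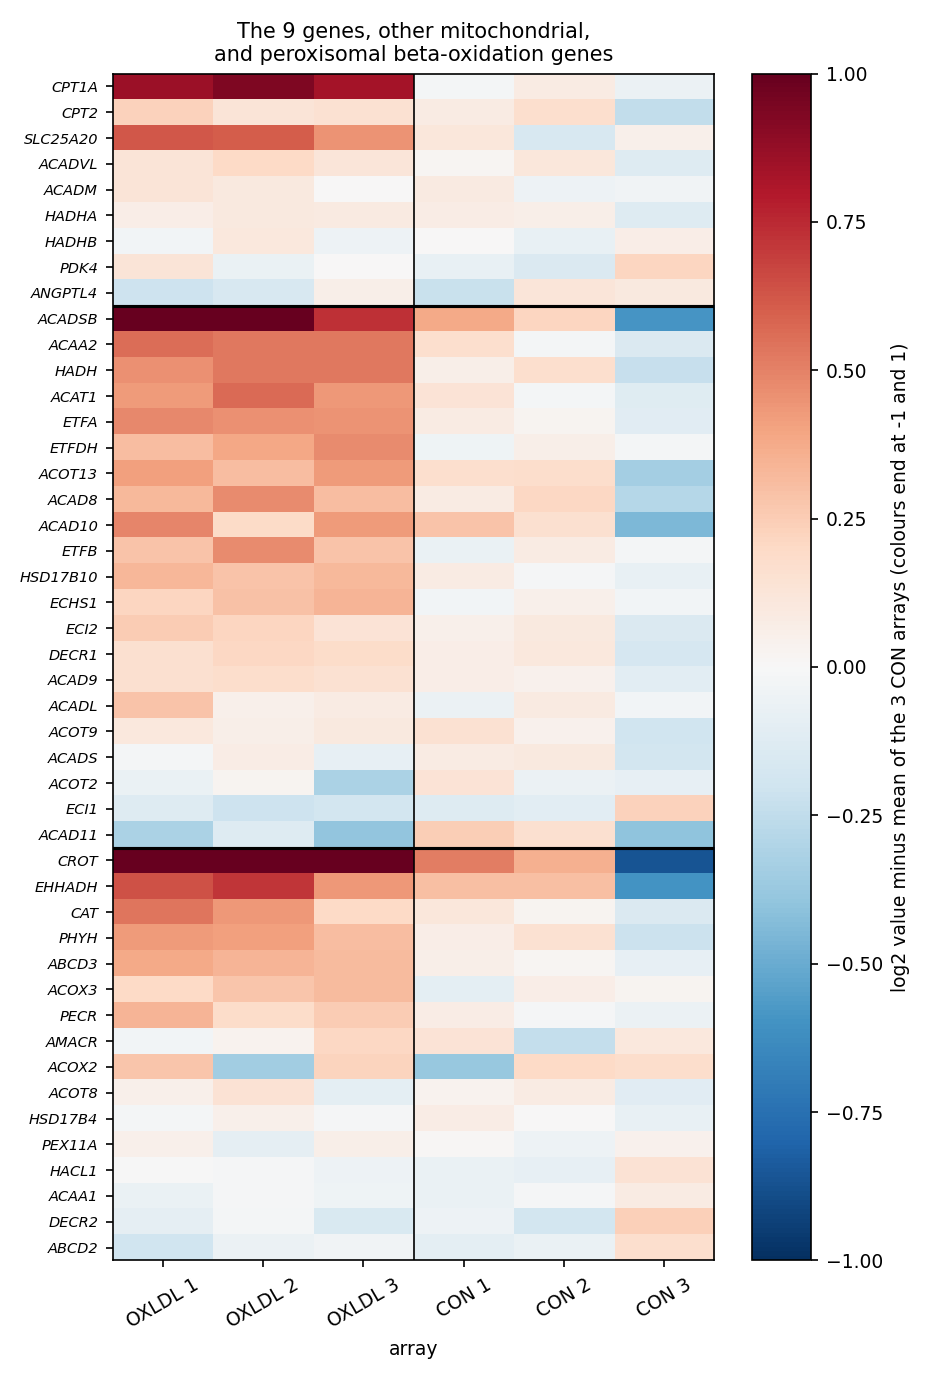
Log2 value on each array minus the mean of the 3 CON arrays, for the 9 genes (top block), the 21 other mitochondrial genes (middle) and the 16 peroxisomal genes (bottom), with OXLDL arrays left and CON arrays right. Colours end at -1 and 1, and within the lower blocks genes are ordered by their difference. CON replicate 3 is the lowest of the 6 arrays for 16 of the 21 mitochondrial genes.

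The transcripts of PPARA, PPARD and PPARG showed no passing change, and receptor activity was not measured. PPARA averaged 8.02 ± 0.09 in OXLDL and 8.10 ± 0.28 in CON (log2 value, SD, n = 3 each), a difference of -0.08 (SE 0.14, limma adjusted p = 0.750) whose sign turned in 2 of 15 alternative fits. PPARD averaged 8.41 ± 0.09 in OXLDL and 8.47 ± 0.0040 in CON (difference -0.06, SE 0.07, adjusted p = 0.632). PPARG averaged 8.88 ± 0.04 in OXLDL and 8.70 ± 0.21 in CON (difference 0.18, SE 0.11, adjusted p = 0.347). Of 14 measured PPARs, RXRs and coregulators, 2 fell and 12 did not pass. NRIP1, the corepressor RIP140, had log2 values of 8.95, 9.15 and 9.16 on the OXLDL arrays, against 9.84, 9.81 and 9.71 on the CON arrays. It fell by 0.70 (SE 0.09, limma adjusted p = 0.00741) and passed without any 1 array (adjusted p = 0.00655 to 0.0415). SIRT1, a deacetylase that acts on PGC-1α, fell by 0.38 (SE 0.08, adjusted p = 0.0376), a call lost without any 1 array other than CON replicate 3 (0.0858 to 0.158). The median was -0.06, or 0.03 without CON replicate 3.

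Among other genes listed as PPAR targets, TRIB3 and G0S2 fell and UCP2 rose. Of 24 measured, 1 rose, 2 fell and 21 did not pass, and the median was -0.21, or -0.08 without CON replicate 3. Only 17 of the 24 lay above the negative controls in either group. Those 17 had a median of -0.20, with 1 higher and 2 lower. TRIB3, a pseudokinase that is also a target of the stress factor ATF4, averaged 9.07 ± 0.06 in OXLDL and 10.66 ± 0.06 in CON (log2 value, SD, n = 3 each), with no overlap. It fell by 1.59 (SE 0.07, limma adjusted p = 0.00028). G0S2, an inhibitor of the triglyceride lipase ATGL, fell by 0.96 (SE 0.09, adjusted p = 0.0027). UCP2, a carrier of the inner mitochondrial membrane, rose by 0.36 (SE 0.07, adjusted p = 0.0265), a call lost without any 1 array other than CON replicate 3 (0.0631 to 0.130). PLIN2, a lipid droplet coat protein, did not pass (0.06, SE 0.11, adjusted p = 0.744), and its sign turned in 1 of 15 alternative fits.

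Around PDK4, none of 12 measured genes of pyruvate dehydrogenase, its other kinases, its phosphatases and the pyruvate carrier passed in limma or with an ordinary t statistic. An unadjusted p under 0.05 was found for 3, against 26.1% of all probe sets. The median of the 12 was 0.14. PDK3 had log2 values of 8.13, 7.96 and 8.14 on the OXLDL arrays, against 7.70, 7.71 and 7.19 on the CON arrays. Its difference was 0.54 (SE 0.15, limma adjusted p = 0.0840), and without CON replicate 3 it rose by 0.37 (adjusted p = 0.0324). PDK1 had a difference of 0.24 (SE 0.09, adjusted p = 0.143). Of the 12 genes, 1 rose with an intensity trend and robust fit and 1 with array weights. Those fits passed 2649 and 3962 of all 21448 probe sets.

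Around ANGPTL4, 2 of 7 measured genes of the lipoprotein lipase system fell and 5 did not pass, with a median of -0.36, or -0.18 without CON replicate 3. LIPG, the endothelial lipase, had log2 values of 5.02, 4.59 and 4.69 on the OXLDL arrays, against 6.29, 5.52 and 5.63 on the CON arrays. It fell by 1.05 (SE 0.22, limma adjusted p = 0.0382), at levels below the negative controls' 5.21 on the OXLDL arrays, and the call was lost without any 1 OXLDL array or CON replicate 2 (0.0533 to 0.152). SEL1L, an adaptor of protein degradation in the endoplasmic reticulum that lipoprotein lipase needs to leave it, fell by 0.40 (SE 0.08, adjusted p = 0.0349), and among the fits that left out 1 array it passed without CON replicate 3 (adjusted p = 0.0143) and not in the others (0.0824 to 0.149). Of 11 other transcription factors known to act on PDK4 or ANGPTL4, 0 passed in limma and 0 with an ordinary t statistic. An unadjusted p under 0.05 was found for 3, against 26.1% of all probe sets. STAT5B had a difference of 0.38 (SE 0.10, adjusted p = 0.0665) and FOXO3 one of -0.21 (SE 0.07, adjusted p = 0.124). Without CON replicate 3, STAT5B rose by 0.29 (adjusted p = 0.0308) and SMAD3 fell by 0.33 (adjusted p = 0.0271, against 0.156 with all arrays). Of the 11 factors, 1 rose with an intensity trend and robust fit, and 1 rose and 1 fell with array weights.

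CPT1 activity is held down by malonyl-CoA, which acetyl-CoA carboxylases make and AMPK curbs. Of 11 genes of this control 1 rose and 10 did not pass, with a median of -0.03. ACACB, the carboxylase placed at mitochondria, had log2 values of 6.26, 6.56 and 6.41 on the OXLDL arrays, against 5.72, 6.04 and 5.68 on the CON arrays. The difference was 0.60 (SE 0.13, limma adjusted p = 0.0395), and the call held only without CON replicate 2 among the fits that left out 1 array (adjusted p = 0.0384, against 0.0512 to 0.156 in the others). PRKAB2, a regulatory AMPK subunit, had a difference of -0.52 (SE 0.14, adjusted p = 0.0784), and without CON replicate 3 it fell by 0.62 (adjusted p = 0.0427).

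**Figure D5:**
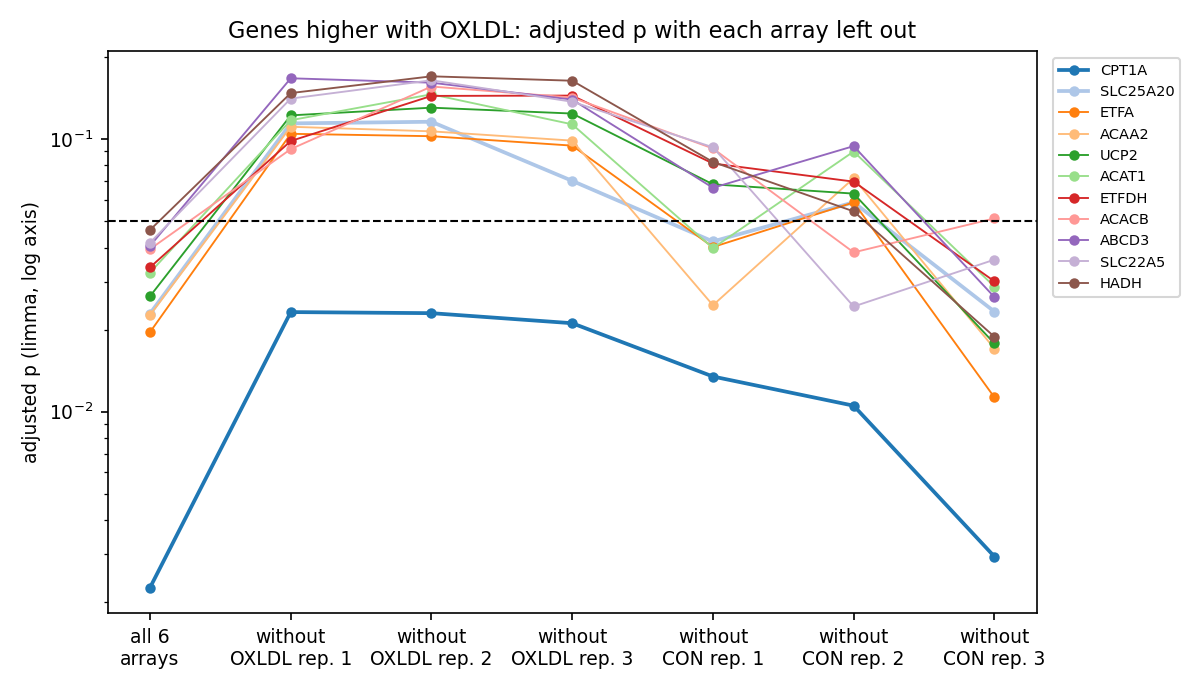
Adjusted p (limma, log axis) of the genes higher with OXLDL, for all 6 arrays and with each array left out in turn (horizontal axis, lines join the points of 1 gene). Thick lines are CPT1A and SLC25A20, thin lines the 9 genes of the other lists that rose, and the dashed line is 0.05. CPT1A stays below the line in every fit, from 0.00226 to 0.0232, and SLC25A20 lies above it in 4 of the 6 fits with an array left out.

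Among the 1266 other named probe sets that passed, those whose values followed CPT1A most closely over the 6 arrays were HOMER2, a scaffold protein (Pearson r = 0.999, log2 difference 0.40), RPP40, a subunit of ribonuclease P (0.999, difference 0.46), and ERCC2, a helicase of the transcription factor TFIIH (0.998, difference 0.57). For SLC25A20 they were PLS1, an actin-bundling plastin (0.992, difference 0.47), TSPYL4 (0.990, difference 0.79) and IFFO2 (0.990, difference 0.67). The arrays fall into the 2 groups compared, so each value shares the difference between groups and is a description with no test. The genes next to CPT1A on its chromosome did not pass, with log2 differences of -0.12 for TESMIN (limma adjusted p = 0.701) and 0.17 for MRPL21 (adjusted p = 0.207). Those next to SLC25A20 did not either, with 0.33 for PRKAR2A (adjusted p = 0.160) and -0.13 for ARIH2 (adjusted p = 0.407). The measured neighbours of the other 7 genes did not pass in limma.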

How the data were processed

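The values deposited by the authors are log2 expression per probe set, with RMA named in the submitters' processing notes. For RMA's version, the genome build and the annotation release, the entry is: not given in the sources used here. Values from 2.28 to 14.1 fit a log2 scale. Biotinylated cDNA was made from 500 ng of total RNA, per the labels' protocols. Normalized array values cannot show a change of total RNA, and values near background are compressed.

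Of 24350 probe sets, 2902 controls were left out and 21448 tested. The platform annotation gave 1 gene symbol for 17709, several for 0 and none for 3739. All 6 arrays, grouped by title, entered 1 limma fit (lmFit and eBayes, limma 3.58.1, R 4.3.3; figures with matplotlib 3.10.9) of OXLDL minus CON, with two-sided p-values adjusted by Benjamini-Hochberg over all tested probe sets and called under 0.05. Errors are SD over arrays or limma's SE, and intervals are 95%. No set test was run. The procedure was tested on simulated data.

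The 9 genes and all lists were chosen with earlier results of these data known. Named genes are the 9, up to 6 passing genes per list or the 2 with the smallest p, and PPARA, PPARD, PPARG, PLIN2 and CD36; for each of the 9 that passed, the 3 most correlated passing genes, and the next protein-coding genes in RefSeq order. CPT1B, ACADSB, HSD17B10, ACAD11, ETFB, SMAD3 and the marker genes were named after their values were seen. Alternatives were 3 normalizations, 2 filters on dim probe sets, 3 variance models, the replicate number as a block, the study's selection and leaving out each array.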

Additional observations from a re-analysis of the deposited data

How the results depend on the processing

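The count of passing genes among the 9 was 2 with all arrays and 1, CPT1A, with an ordinary t statistic, with the replicate number as a block (replicate block), under the study's stated selection and in 4 of the 6 fits that left out 1 array (range 1 to 2). CPT1A passed in all 15 alternative fits. SLC25A20 kept a positive difference in all of them and did not pass with the ordinary t statistic (adjusted p = 0.0688), the block (0.0676) or without OXLDL replicate 1, 2 or 3 or CON replicate 2 (0.0586 to 0.116). Over the 130 other listed genes 15 passed with all arrays, against 24 with an intensity trend and robust fit and 32 with array weights. The ordinary t statistic gave 7, the block 6, and leaving out 1 array 3 to 23. With the brighter probe sets only, 25 of the 87 listed genes tested passed. Over all 21448 probe sets 1451 passed, against 2649, 3962 and 550 with trend, weights and block. Among the 10724 brighter probe sets, tested alone, 2608 passed. The study's selection took 496 of all probe sets, and 305 to 2670 passed with 1 array left out. Signs turned for 3 of the genes that did not pass: HADHB (-0.032 after a second quantile normalization, -0.055 after cyclic loess, and -0.038 to 0.041 with 1 array left out), PDK4 (-0.050 to 0.13 with 1 array left out) and ANGPTL4 (0.010 after cyclic loess). The deviations of same-numbered arrays from their group means had correlations of -0.0061, 0.030 and 0.020. Because CON replicate 3 stood apart, a shared effect of a number could be hidden, so pairing is not excluded. The main fit took no pairs, and the fit with the block is given beside it. Each of the 9 had 1 probe set, so averaging probe sets changes nothing. The cause of these differences between settings was not tested. Limits are signal over background for PDK4, ANGPTL4, CD36, LIPG and part of the other PPAR targets, and 3 arrays per group.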
